A study of Mus musculus with 6 samples.

Results

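The genes described here encode the sensors of inflammasomes and the proteins that carry out pyroptosis, a lytic and inflammatory cell death, and were followed in LPS-treated and Vehicle-treated BV2 cells. They were chosen by symbol, and all 10 (of 55401 genes in the table) were found: 4 sensors (Nlrp3, Nlrp1a, Nlrp1b, Aim2), 2 adaptor genes (Pycard, Nek7), 2 caspase genes (Casp1, Casp4) and 2 genes of membrane pores and rupture (Gsdmd, Ninj1). BV2 is an immortalised mouse microglial cell line, and mRNA enriched with oligo(dT) beads was sequenced. There were 3 libraries of cells given lipopolysaccharide (LPS, a glycolipid from the surface of Gram-negative bacteria) and 3 of cells given Vehicle, to look for regulators of microglial activation. No genotype, dose, time or passage was given in the labels. Nor did they say whether the libraries of a group were separate cultures, and the spread behind each p-value is only that between libraries, which may be technical.

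Inflammasomes are protein platforms that switch on inflammatory caspases. A sensor such as Nlrp3, Nlrp1a, Nlrp1b or Aim2 detects a danger signal, the adaptor Pycard (also called ASC) links pyrin-domain sensors to Casp1, and the kinase Nek7 binds Nlrp3 and licenses it. Casp1 cleaves the interleukin 1 beta and interleukin 18 precursors, both Casp1 and Casp4 (called caspase-11 in mice, which binds LPS in the cytosol) cleave Gsdmd, and the freed part of Gsdmd forms pores in the plasma membrane. Ninj1 then assembles into structures that rupture the membrane of the dying cell. In macrophages and microglia, Nlrp3 is known as a gene that has to be induced, or primed, before the platform can form.

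Libraries held between 45969690 and 59023474 estimated counts. Low values lay at a spacing of 3.76 to 3.93 counts, and the values were read as estimates and not as single reads. All 8 macrophage markers averaged at least 1 CPM (the estimated count over the library's size, scaled by TMM). They summed to between 1700 and 2170 CPM in LPS and between 2010 and 2300 CPM in Vehicle libraries, and single markers went both ways: Csf1r had 86.2 to 87.6 CPM with LPS and 226 to 237 CPM with Vehicle, and Adgre1 181 to 247 CPM with LPS and 134 to 136 CPM with Vehicle. Itgam had 42.9 CPM in LPS 1 and at least 156 CPM in each of the other libraries. Cd68 was the highest of the 8 in every library (808 to 1120 CPM), and Aif1 the lowest (1.76 to 4.58 CPM). Of 5 oligodendrocyte markers 3 reached 1 CPM, and the list summed to between 36.0 and 42.7 CPM in LPS and between 35.9 and 40.0 CPM in Vehicle libraries. Sums were at most 9.17 CPM for astrocyte, neuron and endothelial markers. Fibroblast markers summed to between 0.16 and 0.78 CPM in LPS and between 0.149 and 0.534 CPM in Vehicle libraries, and the lymphocyte markers Cd3e and Ms4a1 were listed at 0. Neutrophil markers were higher with LPS, with sums of 11.7 to 13.6 CPM against 1.92 to 3.22 CPM in Vehicle, nearly all from S100a8, a gene of calprotectin, while Ly6g and Elane were listed at 0 in every library. The part of these markers in the results was not tested. In bulk RNA, fewer cells that express a gene and less RNA per cell cannot be told apart.

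With LPS, 1 sensor gene and 1 caspase gene rose, both Nlrp1 genes fell, and Aim2, Casp1, Nek7, Gsdmd and Ninj1 did not pass the test. Of the 10 members, 9 passed the filter on low counts and Pycard did not. Among the 9, 2 were called higher and 2 lower with LPS by edgeR's quasi-likelihood test (Benjamini-Hochberg adjusted p under 0.05), where 12.7% of all 16371 tested genes were called higher and 10.9% lower. The median log2 fold change was 0.20 over the 9 tested members and -0.02 over all tested genes. A log2 fold change is given ± its standard error (SE), with 3 libraries per group.

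**Figure D1:**
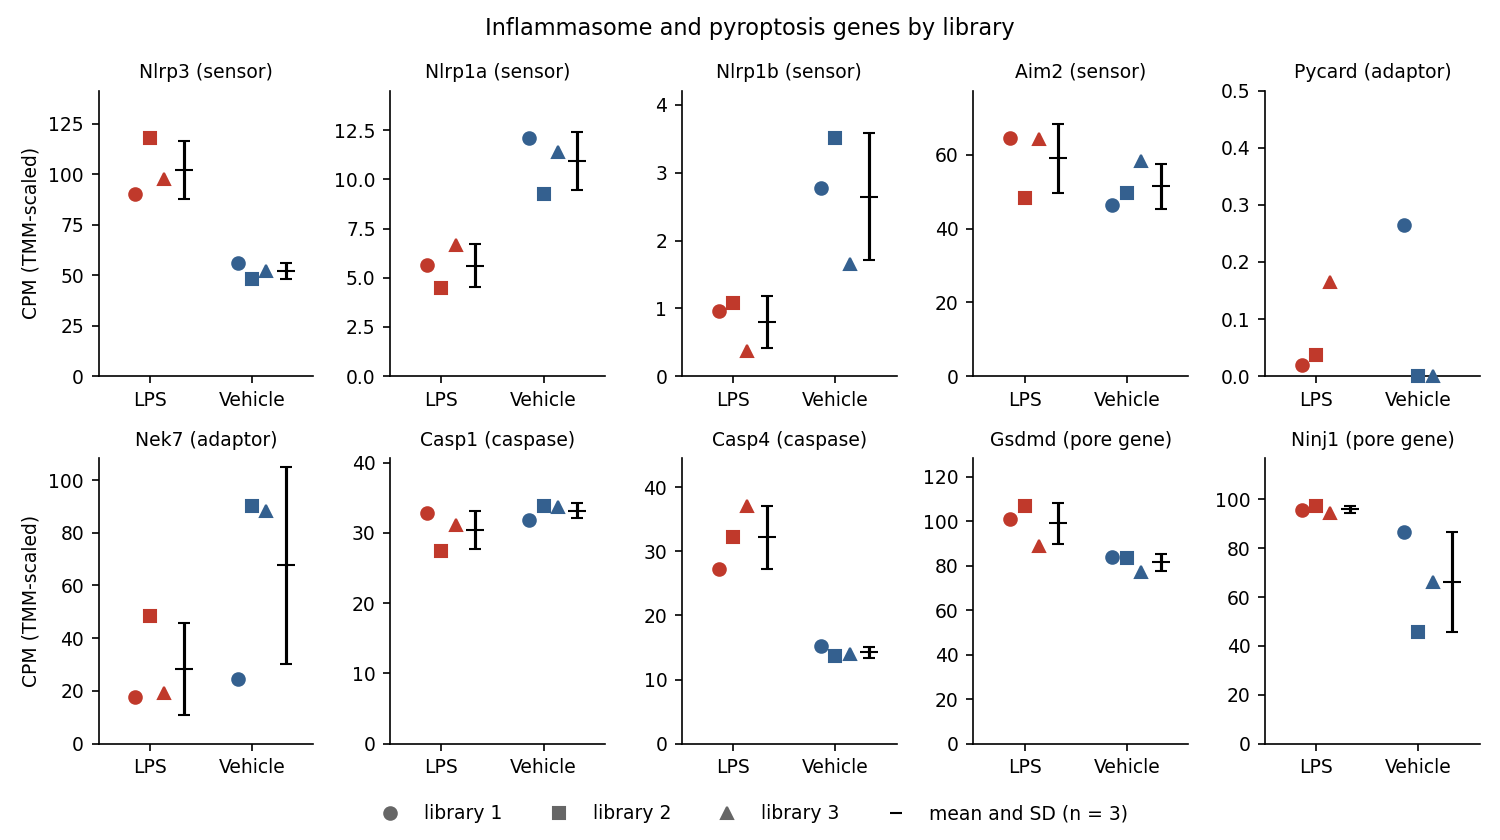
TMM-scaled CPM of the 10 members in each LPS and Vehicle library (points, with a marker shape for each library number) with mean and SD (n = 3), which are not drawn for Pycard; each panel has its own axis from 0. Nlrp3, Casp4, Gsdmd and Ninj1 lay higher in every LPS library than in any Vehicle library, and Nlrp1a and Nlrp1b lower. Of these, Gsdmd and Ninj1 did not pass the test. The share of all tested genes that separated in this way was not counted, so the separation is only a description. Pycard stayed under 0.3 CPM throughout.

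Nlrp3 (ENSMUSG00000032691), the sensor of potassium efflux and membrane damage, had 90.3, 118.0 and 97.7 CPM in LPS 1, 2 and 3, against 56.2, 48.0 and 52.0 CPM in Vehicle 1, 2 and 3. The lowest LPS library lay above the highest Vehicle library, and LPS 2 was the highest of all. Nlrp3 thus rose 1.95-fold (log2 fold change 0.97 ± 0.12, edgeR adjusted p = 0.000954). The call was kept when any 1 library was left out, with log2 fold changes between 0.85 and 1.04.

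Aim2 (ENSMUSG00000037860), which binds double-stranded DNA in the cytosol, had 64.5, 48.3 and 64.3 CPM in the LPS libraries, against 46.5, 49.6 and 58.3 CPM in the Vehicle libraries. The groups overlapped, since LPS 2 lay below both Vehicle 2 and Vehicle 3. Its log2 fold change was 0.20 ± 0.14 (edgeR adjusted p = 0.367). The gene overlaps Cadm3, on the opposite strand, which had at most 54 counts. The ratio of Nlrp3 to Aim2 CPM within a library was 1.40, 2.43 and 1.52 in LPS 1, 2 and 3, against 1.21, 0.968 and 0.892 in Vehicle 1, 2 and 3. The LPS ratios were all above the Vehicle ratios, and their log2 means differed by 0.77 (0.52 to 0.92 with 1 library left out). The two-sided exact permutation test gave p = 0.10 (0.167 adjusted over the 5 ratios tested, which were Nlrp3 to Aim2, to Nek7 and to Pycard, Casp4 to Casp1, and Gsdmd to Ninj1), and 0.10 is the smallest p that 3 libraries against 3 allow.

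Both Nlrp1 genes fell. Nlrp1a (ENSMUSG00000069830), whose protein can activate Casp1 in mice, had 5.65, 4.49 and 6.69 CPM in the LPS libraries, against 12.1, 9.28 and 11.4 CPM in the Vehicle libraries. The groups did not overlap, and its log2 fold change was -0.97 ± 0.20 (edgeR adjusted p = 0.00995), a call that was kept without any 1 library (adjusted p up to 0.0453). Nlrp1b (ENSMUSG00000070390), the paralog known in mice as the sensor of anthrax lethal toxin, had 0.961, 1.08 and 0.369 CPM in the LPS libraries, against 2.78, 3.51 and 1.65 CPM in the Vehicle libraries. Again every LPS library lay below every Vehicle library, at levels of 18 to 57 estimated counts with LPS and 78 to 171 with Vehicle. Nlrp1b fell by 1.71 ± 0.45 on the log2 scale (edgeR adjusted p = 0.0258), and the call was lost without LPS 1, LPS 2, LPS 3, Vehicle 1 or Vehicle 2 (adjusted p between 0.0507 and 0.0914) and with limma voom (adjusted p = 0.0555).

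Nlrp1a and Nlrp1b lie near each other on mouse chromosome 11 and are copies of each other, so reads could be counted for the wrong copy. Of the 4245 stretches of 75 bases in the longest Nlrp1b transcript, 28 (0.66%) also occur in Nlrp1a. The 200 bases before their RefSeq start sites (build GRCm38.p6, the more upstream start of Nlrp1b) are shown because the copies resemble each other there as well. Capitals mark the core motif of PU.1, a myeloid transcription factor (GAGGAA on either strand), which 28.3% of 32851 promoter windows (250 bases before to 50 after a start) hold.
Nlrp1a, chr11:71144705-71144904, minus strand: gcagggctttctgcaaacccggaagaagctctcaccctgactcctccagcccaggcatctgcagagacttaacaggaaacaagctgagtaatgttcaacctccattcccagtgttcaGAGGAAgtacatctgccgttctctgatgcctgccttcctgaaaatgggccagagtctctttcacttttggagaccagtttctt
Nlrp1b, chr11:71230734-71230933, minus strand: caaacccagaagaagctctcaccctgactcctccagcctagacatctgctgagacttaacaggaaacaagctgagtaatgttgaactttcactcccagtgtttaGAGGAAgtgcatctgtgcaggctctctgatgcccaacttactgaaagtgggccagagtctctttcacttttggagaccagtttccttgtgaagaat
Of 187 bases that paired in a global alignment, 170 (90.9%) were identical. By the same measure, which leaves gaps out, Casp4 with Casp1 gave 75.2%. Nlrp3 (at its more downstream start) with Nlrp1a gave 74.8%, so the Casp4 and Casp1 value was close to that of this other pair. The Nlrp1a and Nlrp1b windows shown each held 1 match to the motif, and the window of the other Nlrp1b start held 0.

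Pycard (ENSMUSG00000030793), the adaptor through which Nlrp3 and Aim2 recruit Casp1, was almost undetected. It had 1, 2 and 8 estimated counts in LPS 1, 2 and 3, against 16, 0 and 0 in Vehicle 1, 2 and 3. A floor of 3 steps of the spacing was 11.3 to 11.8 counts per library, so only Vehicle 1 was above it, and no fold is given. The floor covers counting error only. Low estimates were also counted among 168 genes for ribosomal proteins, proteasome, complex I, V-ATPase and Ragulator subunits. This set was chosen after the Pycard values were seen, and 4 of the 168 genes averaged at or under the floor. Of these Atp6v1b1, Atp6v1c2 and Atp6v1e2 are isoforms restricted to certain tissues, while Lamtor4, a Ragulator subunit, had 0, 5 and 8 counts with LPS against 21, 20 and 0 with Vehicle. On the opposite strand Gm45205 overlaps Pycard and holds 411 of its 3726 stretches of 75 bases. It had 0 to 8 counts with LPS and 8 to 35 with Vehicle. Whether the low Pycard values reflect the cells or the counting was not tested.

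Nek7 (ENSMUSG00000026393), the kinase that licenses Nlrp3, had 17.6, 48.4 and 19.1 CPM in the LPS libraries, against 24.6, 90.3 and 88.3 CPM in the Vehicle libraries. Libraries within each group differed by more than 2-fold: Vehicle 1 lay among the low values, and LPS 2 stood between the low and the high ones. The log2 fold change was -1.24 ± 0.64 (edgeR adjusted p = 0.232). It was -1.65 (adjusted p = 0.0798) without Vehicle 1, -1.88 without LPS 2 and -0.99 at its smallest. The ratio of Nlrp3 to Nek7 CPM was 5.13, 2.43 and 5.10 in LPS 1, 2 and 3, against 2.28, 0.532 and 0.589 in Vehicle 1, 2 and 3. The groups of ratios did not overlap, by a narrow margin between LPS 2 and Vehicle 1 (two-sided exact permutation p = 0.10, the smallest possible).

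**Figure D2:**
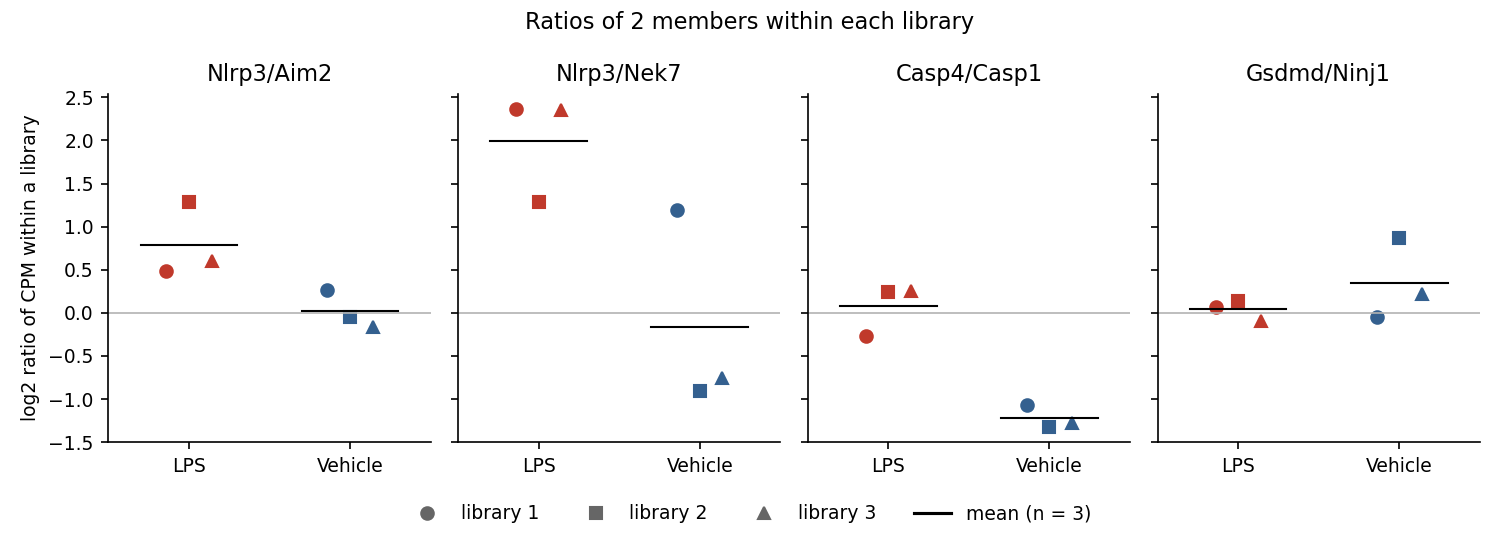
Log2 ratio of the TMM-scaled CPM of 2 members within each LPS and Vehicle library (points, marker shape by library number; line, mean of 3 libraries). Nlrp3/Aim2, Nlrp3/Nek7 and Casp4/Casp1 were higher in every LPS library than in any Vehicle library, and Gsdmd/Ninj1 overlapped.

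Casp4 rose, and Casp1 did not pass the test. Casp4 (ENSMUSG00000033538) had 27.2, 32.2 and 37.1 CPM in the LPS libraries, against 15.2, 13.6 and 13.9 CPM in the Vehicle libraries. All LPS libraries lay well above all Vehicle libraries, a 2.26-fold rise (1.18 ± 0.15 on the log2 scale, edgeR adjusted p = 0.000942), which stayed between 1.06 and 1.28 and kept its call with any 1 library left out. Casp1 (ENSMUSG00000025888) had 32.8, 27.4 and 31.1 CPM in the LPS libraries, against 31.9, 33.9 and 33.7 CPM in the Vehicle libraries, a spread that overlapped. Its log2 fold change was -0.12 ± 0.11 (edgeR adjusted p = 0.483).

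The ratio of Casp4 to Casp1 CPM was 0.83, 1.18 and 1.19 in LPS 1, 2 and 3, against 0.477, 0.40 and 0.413 in Vehicle 1, 2 and 3. The mean log2 ratio was 0.07 ± 0.30 with LPS and -1.22 ± 0.14 with Vehicle (SD, n = 3), with no overlap (two-sided exact permutation p = 0.10, the smallest possible, and 0.167 adjusted over the 5 ratios). No library set this difference, which was 1.21 to 1.47 on the log2 scale with any 1 library left out. Neither gene shared a stretch of 75 bases with a transcript of another gene.

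Casp1 and Casp4 are neighbours on chromosome 9 and lie on the same strand. The 200 bases before their start sites and that of Nlrp3 are shown because both genes that rose held a match to the kappaB motif bound by NF-kB, in capitals with the PU.1 core, in these windows. Casp4 and Nlrp3 have 2 RefSeq starts each, and the more upstream is shown.
Casp4, chr9:5308649-5308848, plus strand: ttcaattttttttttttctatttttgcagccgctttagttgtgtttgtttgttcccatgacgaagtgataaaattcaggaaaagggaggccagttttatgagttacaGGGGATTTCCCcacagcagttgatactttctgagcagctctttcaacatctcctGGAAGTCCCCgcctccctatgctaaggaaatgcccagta
Nlrp3, chr11:59541369-59541568, plus strand: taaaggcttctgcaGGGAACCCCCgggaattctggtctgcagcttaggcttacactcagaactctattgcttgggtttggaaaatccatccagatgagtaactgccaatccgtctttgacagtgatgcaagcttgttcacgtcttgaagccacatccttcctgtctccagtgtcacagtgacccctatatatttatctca
Casp1, chr9:5298317-5298516, plus strand: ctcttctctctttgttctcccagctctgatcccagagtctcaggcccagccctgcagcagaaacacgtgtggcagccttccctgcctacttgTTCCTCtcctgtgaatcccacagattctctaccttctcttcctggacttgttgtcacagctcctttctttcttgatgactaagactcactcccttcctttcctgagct
In Casp4 the kappaB matches were GGGGATTTCC and GGGATTTCCC, which overlap at 93 to 83 bases before the start, and GGAAGTCCCC, which reads as the motif on the other strand at 39 to 30 bases before it. Nlrp3 had GGGAACCCCC at 186 to 177 bases before this start and no kappaB match at its other start. Casp1 had a PU.1 core and no kappaB match. The window of the other Nlrp3 start, which is not shown, held 3 PU.1 cores. Over both strands, 8.46% of the 32851 promoter windows held the kappaB motif. This share is per window, and Casp4 and Nlrp3 had 2 windows each. Any part of the motif in their rise was not tested. The interferon motifs TTCNNNGAA (GAS, in 8.30% of windows) and GAAANNGAAA (the core of the ISRE, in 3.44%) were in none of the 12 windows of the 9 members matched in RefSeq, all but Gsdmd. A match describes letters only, and binding was not measured.

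Neither gene of the pore and of membrane rupture passed the test. Gsdmd (ENSMUSG00000022575), the pore-forming substrate of both caspases, had 101.0, 107.0 and 89.0 CPM in the LPS libraries, against 83.9, 83.6 and 77.1 CPM in the Vehicle libraries. Each LPS library was above each Vehicle library, but the log2 fold change of 0.28 ± 0.10 did not pass the test (edgeR adjusted p = 0.0774). Without LPS 3, the lowest of the LPS group, it was 0.34 ± 0.08 and passed (adjusted p = 0.0193). Gsdmd did not pass without any other 1 library (edgeR adjusted p between 0.149 and 0.223). Ninj1 (ENSMUSG00000037966), the gene of membrane rupture, had 95.6, 97.4 and 94.5 CPM in the LPS libraries, against 86.7, 45.8 and 66.0 CPM in the Vehicle libraries. The LPS libraries were nearly equal and the Vehicle libraries spread widely, with Vehicle 1 close to the LPS values but below all of them. The log2 fold change was 0.53 ± 0.21 (edgeR adjusted p = 0.108), and without Vehicle 1 it was 0.78 ± 0.16 (adjusted p = 0.0202). Ninj1 did not pass without any other 1 library (edgeR adjusted p between 0.172 and 0.233). Its smallest log2 fold change with a library left out was 0.32. The ratio of Gsdmd to Ninj1 overlapped between the groups (two-sided exact permutation p = 0.40).

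**Figure D3:**
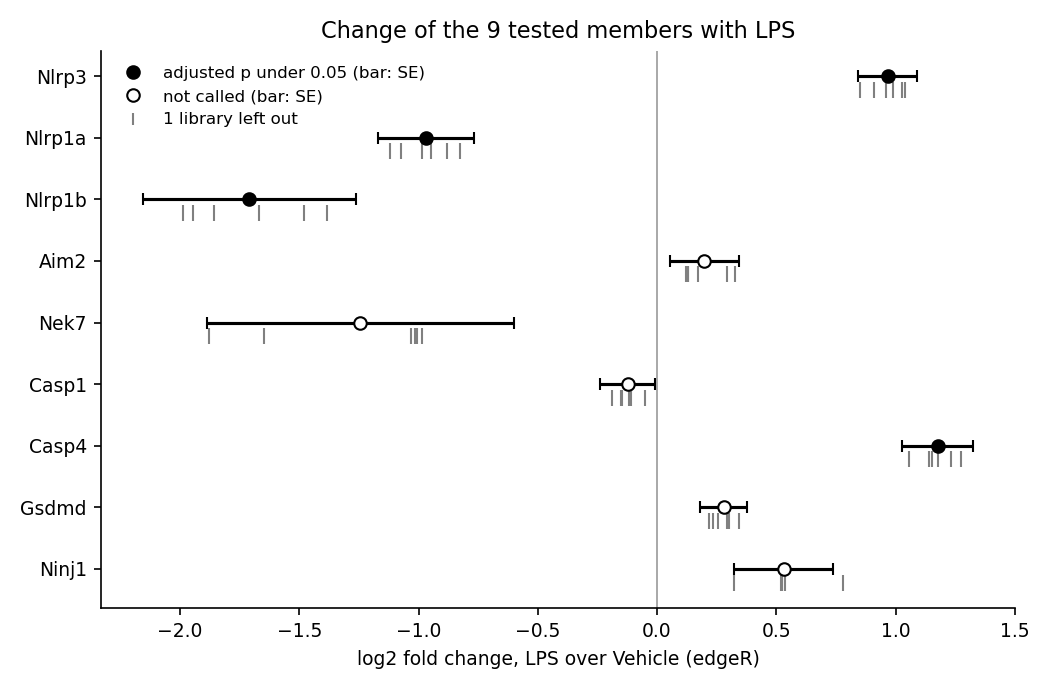
Log2 fold change of LPS over Vehicle for the 9 tested members from edgeR (circles; filled where the adjusted p was under 0.05; bars, SE) with the value when each library in turn was left out (grey ticks). Nlrp3 and Casp4 lie near 1, Nlrp1a near -1, and the ticks of Nek7 and Nlrp1b spread most.

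Levels of different genes were compared per kilobase of the longest annotated transcript. With LPS the order was Ninj1 (72.5 ± 1.09 CPM per kilobase, SD, n = 3), Gsdmd (55.2 ± 5.08), Nlrp3 (25.3 ± 3.50), Aim2 (20.8 ± 3.28), Casp1 (20.3 ± 1.86), Casp4 (16.9 ± 2.61), Nek7 (5.39 ± 3.30), Nlrp1a (1.44 ± 0.282), Nlrp1b (0.186 ± 0.0881) and Pycard (0.0195). The neighbours from Nlrp3 to Casp4 overlapped between libraries, whereas the pore genes stood above all sensors and caspases. With Vehicle, Ninj1 (50.1 ± 15.5 CPM per kilobase) and Gsdmd (45.5 ± 2.15) again came first and overlapped each other. Casp1 (22.1 ± 0.756), Aim2 (18.1 ± 2.15), Nek7 (12.9 ± 7.11), Nlrp3 (12.9 ± 1.01), Casp4 (7.47 ± 0.454), Nlrp1a (2.80 ± 0.375), Nlrp1b (0.613 ± 0.217) and Pycard (0.0232) followed, and Nek7 overlapped both Aim2 and Nlrp3. Nlrp3 had rank 3 with LPS and rank 6 with Vehicle. The pore genes exceeded Casp1 in every library of both groups.

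Over the 6 libraries, the genes whose log2 CPM followed that of Nlrp3 most closely, among 9819 with at least 5 CPM on average, were Fbxw9, Rexo4 and Atg13, each with Pearson's r of 0.995 as a description. Atg13, which starts autophagosome formation, had 247, 275 and 245 CPM in the LPS libraries, against 188, 179 and 188 CPM in the Vehicle libraries. Like Nlrp3, all 3 were highest in LPS 2 and lowest in Vehicle 2.

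The rest of the pathway was followed in 11 lists of 111 other genes, of which 88 were tested, 15 were called higher and 9 lower. Over all 16371 tested genes, 12.7% were called higher and 10.9% lower. The counts of the lists, here and below, are descriptions and were not tested against these shares. Among other sensors, 2 of 6 tested genes were higher and 1 lower (median 0.28 on the log2 scale). Naip2 and Naip1, receptors of bacterial secretion proteins that feed the Nlrc4 inflammasome, had log2 fold changes of 0.57 ± 0.10 and 0.81 ± 0.21, and Naip1 lost its call without LPS 1, Vehicle 1 or Vehicle 2 (edgeR adjusted p up to 0.0926). Naip genes are close copies, and their values are uncertain. Nlrc4 itself had 9.29, 8.92 and 8.70 CPM in the LPS libraries, against 8.67, 6.71 and 9.27 CPM in the Vehicle libraries, which overlap. Nlrp10 fell with -1.02 ± 0.24, a call lost without Vehicle 2 or Vehicle 3 (adjusted p up to 0.0718). Mefv, the pyrin gene, was listed at 0 throughout. None of the 8 tested relatives of Aim2 was called by edgeR, with 1 higher at an unadjusted p under 0.05 and by DESeq2, which was Ifi209, and 0 by limma voom. Ifi209 had 0.94 ± 0.34 (edgeR adjusted p = 0.0916) and was also called without LPS 1 and with the replicate block, and Mndal was called lower without LPS 3. These genes too are close copies of one another.

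**Figure D4:**
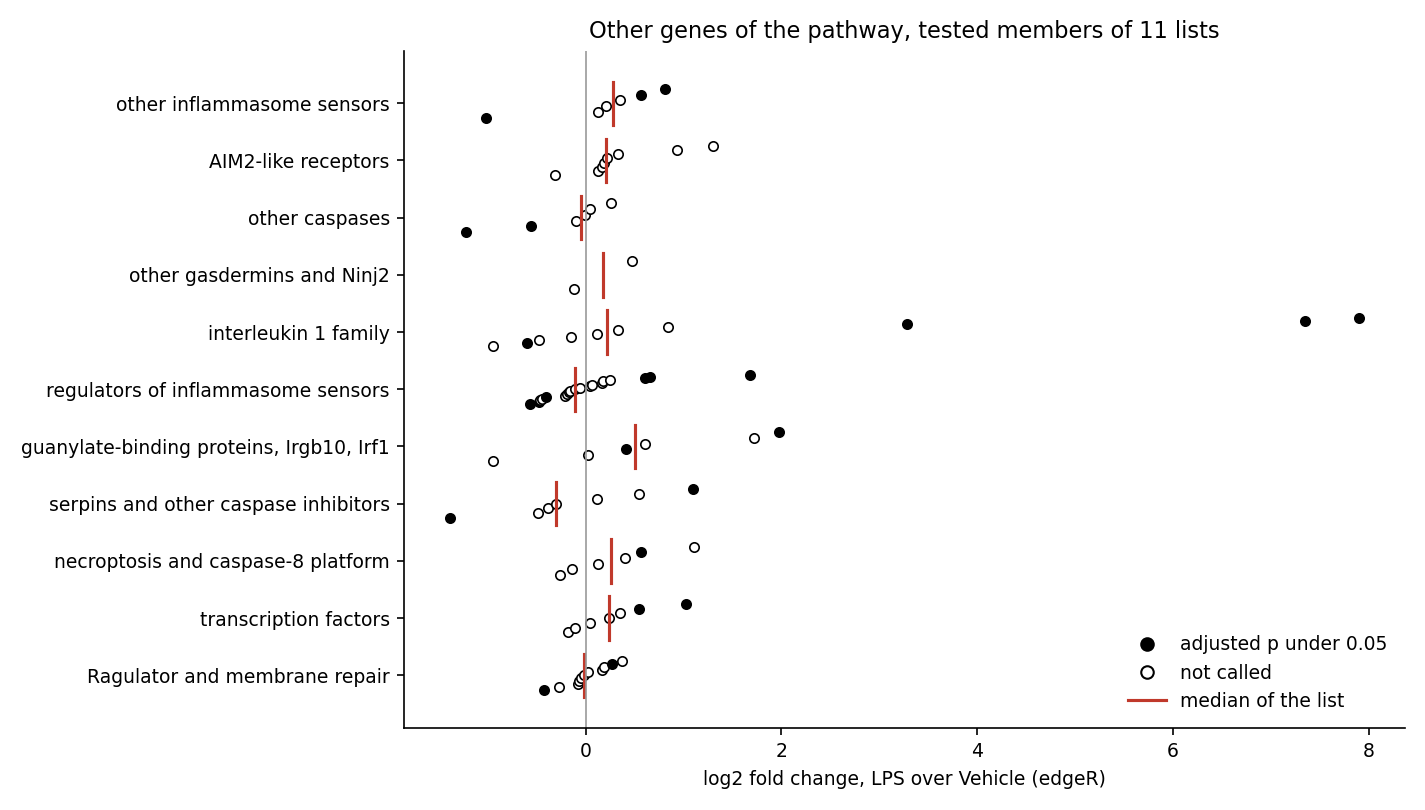
Log2 fold change of LPS over Vehicle for the tested genes of 11 lists of the inflammasome pathway from edgeR (points, filled where the adjusted p was under 0.05; red line, median of the list). Il1b, Il1a and Il1rn stand far to the right at 7.90, 7.35 and 3.28, and the other points lie between -1.4 and 2.

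The interleukin 1 genes, whose precursors lie downstream of the platform, were measured beside it. Il1b, a substrate of Casp1, had 411, 555 and 286 CPM in the LPS libraries, against 1.21, 2.03 and 2.09 CPM in the Vehicle libraries, and rose by 7.90 ± 0.37 on the log2 scale (edgeR adjusted p = 3.56e-05). Il18, the other cytokine that Casp1 matures, had 5.41, 7.48 and 4.99 CPM with LPS, against 4.07, 3.72 and 6.57 CPM with Vehicle, and did not pass the test (0.33 ± 0.28, adjusted p = 0.431). So Il1b was low in every Vehicle library and high in every LPS library, while the Il18 groups overlapped. Of 10 tested genes of the interleukin 1 family, 3 were higher (Il1a, Il1b and Il1rn) and 1 lower, the median being 0.22 on the log2 scale. Il1a, an alarmin, had a log2 fold change of 7.35 ± 0.22. Il18rap, a chain of the interleukin 18 receptor, had -0.60 ± 0.17, a call that no left-out library but LPS 3 preserved (edgeR adjusted p up to 0.114) and that the replicate block also ended.

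Of 19 tested regulators of the sensors, 3 were called higher and 3 lower, with a median of -0.11 (over all tested genes, 12.7% were called higher and 10.9% lower). Tnfaip3, the ubiquitin-editing enzyme A20 that restrains Nlrp3, had 70.9, 71.8 and 67.4 CPM with LPS, against 22.7, 21.4 and 21.6 CPM with Vehicle, a log2 fold change of 1.68 ± 0.10. Mark4, a microtubule-affinity kinase, had 0.66 ± 0.13, and Lrrfip2 0.61. P2rx7, the ATP-gated channel whose opening triggers Nlrp3, fell to 18.5, 23.1 and 19.0 CPM in the LPS libraries, against 28.4, 26.9 and 29.2 CPM in the Vehicle libraries (-0.48 ± 0.13, edgeR adjusted p = 0.0295), a call that ended without LPS 1 or any 1 Vehicle library (up to 0.0902). Dpp8, a peptidase that holds Nlrp1 sensors in check, fell with -0.57 ± 0.13, and its call was lost without Vehicle 2 (up to 0.0624). The potassium channel gene Kcnk6 had -0.40 (edgeR adjusted p = 0.0405), a call that no left-out library but Vehicle 1 preserved and that no filter or the replicate block also ended. The relative of Dpp8, Dpp9, had -0.17 and was not called. The number called lower was 0 without Vehicle 2, 1 without LPS 1 or Vehicle 3, and 5 with total count scaling or with DESeq2.

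Of the 6 genes of guanylate-binding proteins and their partners, 2 rose, with a median of 0.51. Gbp2, which coats bacteria and exposes their LPS to Casp4, had 29.3, 26.5 and 22.2 CPM with LPS, against 6.0, 6.45 and 7.48 CPM with Vehicle (1.98 ± 0.17). Gbp3 had 0.41 ± 0.12 (edgeR adjusted p = 0.0406), a call that no left-out library but LPS 2 preserved (up to 0.144) and that upper quartile or total count scaling, no filter or the replicate block also ended. These genes are close copies, and their values are uncertain. Among 7 inhibitors of caspases and of granule proteases 1 rose and 1 fell (each 1 to 2 with a library left out), with a median of -0.30. Birc3, an inhibitor of apoptosis protein, rose with 1.10 ± 0.17. Serpinb1a, in mice an inhibitor of neutrophil-type proteases and of inflammatory caspase activation, fell to 41.4, 34.4 and 19.3 CPM in the LPS libraries, against 80.1, 89.5 and 79.2 CPM in the Vehicle libraries (-1.39 ± 0.25).

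Among other caspase genes, Casp2 had a log2 fold change of -0.56 ± 0.14, a call that ended without LPS 1, LPS 2, Vehicle 2 or Vehicle 3 (edgeR adjusted p up to 0.0818). Casp8, an initiator of apoptosis, had 81.2, 75.2 and 85.0 CPM with LPS, against 77.0, 77.9 and 78.1 CPM with Vehicle. The groups overlapped, and it was not called (0.05 ± 0.09). Among other gasdermins, Gsdme had 16.5, 17.9 and 14.3 CPM with LPS, against 18.3, 18.4 and 16.3 CPM with Vehicle, and the groups overlapped (-0.12 ± 0.14). Gsdmc4 was the other tested gene of the 10 in that list, under 1 CPM, and neither was called by edgeR, DESeq2 or limma voom, or at an unadjusted p under 0.05.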

How the data were processed

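Poly(A)-selected RNA from BV2 cells was converted to NEBNext Ultra libraries and sequenced on an Illumina NovaSeq, per the labels' protocols. The tools named in the submitters' processing notes, without role or order, are StringTie 1.3.1, HISAT2, DESeq2 and Bowtie2 2.2.8. The genome build is not given in the sources used here. The deposited table holds the authors' expected counts (estimated read numbers for each gene). All were whole numbers, so rounding changed nothing, and 0 columns were left unmapped.

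Counts were tested in R 4.3.3 with edgeR 4.0.16: filterByExpr (minimum count 10, total 15), TMM scaling and the robust quasi-likelihood F-test over all 16371 tested genes, two-sided, with Benjamini-Hochberg adjustment. The SE is the log2 fold change over the square root of F. Log2 ratios used a prior count of 2. DESeq2 1.42.0 and limma 3.58.1 served as alternatives, and figures used matplotlib 3.10.9. The procedure was tested on simulated data. Gene names and lengths came from GENCODE vM21 (55141 of 55401 IDs had a symbol), and promoter sequences from RefSeq, build GRCm38.p6. Motifs were searched on both strands from 250 bases before to 50 after each start.

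The members, gene lists and tests were chosen with earlier results of these data known. Genes named are all 10 members, up to 2 called rises and 2 called falls of each list with the largest changes, Il1b, Il18, P2rx7, Nlrc4, Casp8 and Gsdme, and the 3 genes most like Nlrp3. Some genes under this rule are not reported here. Genes named outside this rule (Mefv, Ifi209, Mndal, Lrrfip2, Kcnk6, Csf1r, Adgre1, Itgam, Cd68, Aif1, Dpp9, Gsdmc4, Il1rn, Ripk3, Zbp1, Rela, Irf2, S100a8 and the genes at the floor) were chosen after their values were seen. Nothing says that the library kit kept strand, so reads of overlapping genes on opposite strands cannot be told apart.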

Additional observations from a re-analysis of the deposited data

How the results depend on the processing

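All 9 tested members kept their direction under every alternative run (Nlrp1b was not tested after the stricter filter). These were 3 other scalings, no filter and a stricter filter, DESeq2, limma voom, edgeR's older test, a replicate block, division of the counts by their spacing (chosen after seeing the data) and leaving out each library. Of the members, 2 were called higher under each of these but without LPS 3 or Vehicle 1 (2 to 3 over the left-out libraries), and 1 was called lower after the stricter filter and with limma voom, and 1 to 2 over the left-out libraries. Over all genes 3864 were called, and 2344 to 4535 when 1 library was left out, with the lowest number without Vehicle 2. With total counts in place of TMM 42.2% of the called genes were higher, against 53.9%. The log2 ratio of Nlrp3 to Pycard, LPS minus Vehicle, was 0.63, turned to -0.12 with a prior count of 0.5 and ran from -0.30 to 1.19 over the left-out libraries, the lowest without Vehicle 1. The cause was not tested. Same-numbered libraries deviated together only weakly (r of 0.073, 0.045 and 0.058, each the highest for its number, a hint from the data and not the design), so the numbers were not taken to pair the samples, and the replicate block left 3816 genes called and ended no call of a member. Pycard lay at or under the floor of 3 steps in all libraries but Vehicle 1, so a difference in it was not detectable at this depth.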

Other observations

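Of 6 tested genes of necroptosis and the caspase-8 platform 1 rose (median 0.26 on the log2 scale). Mlkl, which forms the pore of necroptosis, rose to 114, 115 and 126 CPM in the LPS libraries, against 78.4, 86.5 and 75 CPM in the Vehicle libraries (log2 fold change 0.56 ± 0.09, edgeR adjusted p = 0.00362). The kinase gene Ripk3 had 0.40 and the nucleic acid sensor gene Zbp1 1.10, and neither was called.

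Of 7 transcription factor genes linked to inflammasome genes 2 rose, with a median of 0.24. Nfkb1, a subunit of NF-kB, had 228, 221 and 203 CPM with LPS, against 99.3, 110 and 111 CPM with Vehicle (1.03 ± 0.09). Irf8, which drives Naip genes in mice, had 0.54 ± 0.12 and lost its call without Vehicle 2 or Vehicle 3 (edgeR adjusted p up to 0.0586). Rela, and Irf2, a regulator of Gsdmd, were not called, with 0.36 and -0.11.

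Of 11 tested Ragulator, Rag and membrane repair genes 1 rose and 1 fell, with a median of -0.02, and each count was 0 to 2 over the alternatives. Chmp4b, an ESCRT subunit that removes damaged membrane, had 0.27 ± 0.08 (edgeR adjusted p = 0.0476), a call that no left-out library but LPS 3 preserved (up to 0.173) and that the other scalings, no filter or the replicate block also ended. Lamtor5 had -0.43 ± 0.13, a call that ended with no filter and without LPS 1 or any 1 Vehicle library (up to 0.12).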
